A study of Homo sapiens with 3 samples.

Results

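The comparison of the nm23-H1 transfectant with its vector control was read across all genes that the arrays measured. It used 2 of the 3 arrays of the series, 1 for each construct, so every value is a description of 2 hybridisations without replicates, and no test was made. Genes were taken from all probe sets annotated to a single gene symbol, 1 probe set a gene, and 7772 of 11964 genes were measured, that is, their signal was above a floor of 28.3 units on at least 1 of the 2 arrays. The floor was the median of all scaled values, and the other 4192 genes lay below it on both arrays.

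Both arrays held total RNA of CAL 27, an established cell line from a poorly differentiated squamous cell carcinoma of the tongue. One group was CAL 27 stably transfected with pEGFPC1-nm23-H1, which makes Nm23-H1 fused to the green fluorescent protein EGFP, and the other was CAL 27 stably transfected with the empty pEGFPC1 vector, which makes EGFP alone. The study's design text speaks of clones that express the fusion protein and of a single clone with the empty vector. Cells of both groups were grown in DMEM with fetal bovine serum. Construct, clone and array coincided, so an effect of Nm23-H1 and a difference between separately selected cells cannot be told apart here.

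Nm23-H1, the product of NME1, is a nucleoside diphosphate kinase, an enzyme that passes phosphate from ATP to other nucleoside diphosphates. As background, it was the first metastasis suppressor to be described, found through its low expression in metastatic melanoma lines. Stratified squamous epithelium, the tissue that gives rise to such carcinomas, has basal cells that express KRT5 and KRT14, and upper layers that build a cornified envelope from small proline-rich proteins and other precursors.

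The signals were deposited as linear MAS5 values with medians of 29.6 on the nm23-H1 array and 26.5 on the vector array, and each array was then multiplied by a constant to a common trimmed mean. The 18 bacterial and phage hybridisation control probe sets, which report RNA added in equal amount, differed by a median of 0.02 (log2, nm23-H1 minus vector) as deposited and by -0.09 after scaling. They spread widely, with an SD of 0.21 and a range of -0.62 to 0.13 after scaling. Their geometric mean, used where the controls set the scale, was 720 against 738 units as deposited and 739 against 817 units after scaling. The ratio of the 3′ to the 5′ control probe set, a sign of RNA quality, was 0.878 and 0.881 for GAPDH and 1.41 and 1.75 for ACTB on the nm23-H1 and vector arrays. The only repeat measurement within an array was the further probe sets of a gene. Between the 2 brightest probe sets of 1758 genes the difference disagreed with an SD of 0.33 per probe set (log2), which covers neither cultures nor hybridisations. The number of arrays limits the precision.

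The targeted gene was higher on the array labelled nm23-H1, but by less than the 2-fold used for calls. The NME1 probe set read 2379 units with nm23-H1 and 1519 with vector, a difference of 0.65 (log2), or 1.57-fold. Of all measured genes, 689 were at least 1.5-fold higher, so a difference of this size was not particular to NME1. NME2, measured by a probe set that also matches the read-through transcript of both genes, read 2323 and 2272 units, a difference of 0.03. Among the other family members NME3 differed most, at 170.1 and 71.2 units (1.26), while NME4 stood at 215 and 218 units (-0.02) and NME6 differed by 0.35. For NME5 and NME8 neither array exceeded the floor. Each of these genes had 1 probe set on the array, and whether the NME1 probes lie in the transfected sequence was not tested.

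Differences were few and went both ways. At least 2-fold higher with nm23-H1 were 171 genes, or 2.2% of the 7772 measured, and 138 genes, or 1.78%, were at least 2-fold lower, 3.98% in all. These shares are the background for every gene list described here, and the median difference of all measured genes was 0.01. Below 0 were 49.0% of all measured genes. The shares include 2914 genes of at most 66.2 units on the brighter array, where the floor caps the difference that can be reached. The far tail was on the lower side, where 11 genes passed 4-fold and 4 of them 8-fold, against 5 and 0 on the higher side. For 42 of the higher and 41 of the lower genes the dimmer array was at the floor, so their fold is a lower bound and is given as "at least". With the floor raised to the 70th percentile, 66.2 units, 72 higher and 60 lower genes were left. Those of the gene lists no longer called were SPRR2B, TGM1, S100A7, S100A12, CEACAM6, MMP13, HBEGF, ETV4, IL1RN, CHAC1, STC2, IRF7, USP18, HLA-E, ENO2, SC5D, CDC45, PSME4, HSPB8, ITGA5, DST, CLDN4, VIM, BMP2, SMAD1, MET and MT1M. Named genes outside the lists that were no longer called included TUBA1A, ZXDC, SNCG, SNX5, UBAP1, TSFM, TTC1, AATK, ASB13 and BDKRB2. The balance depended on the scale: with the values as deposited, 209 genes were higher and 93 lower, and the median of all genes was 0.11, and with the arrays set equal on the hybridisation controls 301 were higher and 106 lower, with a median of 0.15.

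**Figure D1:**
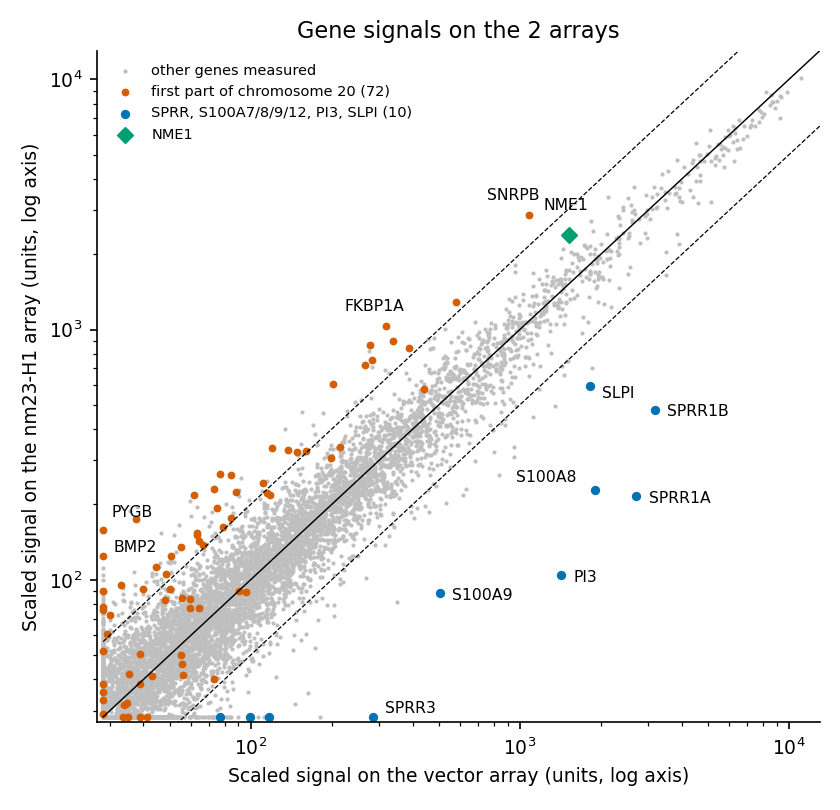
Scaled signal of each measured gene on the vector array (x) against the nm23-H1 array (y), both on log axes, with values below the floor drawn at 28.3 units; the solid line marks equal signal and the dashed lines a 2-fold difference. The 10 blue genes (SPRR genes, S100A7, S100A8, S100A9, S100A12, PI3 and SLPI) lie below the lower dashed line, and 40 of the 72 orange genes from the first part of chromosome 20 lie above the upper one.

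Among the genes that differed most were several of the upper epidermal layers, and these were lower with nm23-H1. Of 19 measured genes of the cornified envelope, the cross-linked protein shell of differentiated keratinocytes, 7 were at least 2-fold lower and 0 higher, 17 were below 0, and the median was -0.57 (log2). SPRR1A and SPRR1B, small proline-rich proteins that are cross-linked into the envelope, read 215 against 2707 units and 477 against 3177 units with nm23-H1 and vector. The second probe set of SPRR1A, whose name marks possible cross-hybridisation with other sequences, gave a difference of -3.22 beside -3.65. SPRR3, a member made mainly in oral and oesophageal epithelium, read 284 units with vector and was at the floor with nm23-H1. SPRR2B was at least 3.51-fold lower, by a probe set whose name marks possible cross-hybridisation with other sequences, so the SPRR2 genes cannot be told apart. CSTA, the protease inhibitor cystatin A, read 325 against 802 units. TGM1, the transglutaminase that cross-links the envelope, read 36.6 against 85.8 units and lies on chromosome 14, a chromosome shifted down as described below. KLK10, a kallikrein protease, was 2.01-fold lower by its brightest probe set (717 against 1439 units) and differed by -0.33 by the other. IVL, involucrin, was close to the floor at 34.4 and 43.8 units (-0.35), and KLK5, a protease of desquamation, was brighter with nm23-H1 at 2182 against 1732 units (0.33).

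The promoters of SPRR1A, SPRR1B and SPRR3 are shown because these 3 neighbouring genes had the largest differences of the cornified envelope list. The sequences are the 250 bases before each RefSeq start in GRCh38.p14, 5′ to 3′ on the strand of the gene, and capitals mark the letters TGANTCA, the AP-1 motif bound by FOS and JUN proteins, which reads the same on both strands.
SPRR1A (chr1:152983831-152984080, plus strand): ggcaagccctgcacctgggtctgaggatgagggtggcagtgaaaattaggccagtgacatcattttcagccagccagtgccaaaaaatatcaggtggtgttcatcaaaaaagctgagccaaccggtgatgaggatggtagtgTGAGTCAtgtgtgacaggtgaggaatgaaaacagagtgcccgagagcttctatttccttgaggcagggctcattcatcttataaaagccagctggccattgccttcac
SPRR1B (chr1:153030953-153031202, plus strand): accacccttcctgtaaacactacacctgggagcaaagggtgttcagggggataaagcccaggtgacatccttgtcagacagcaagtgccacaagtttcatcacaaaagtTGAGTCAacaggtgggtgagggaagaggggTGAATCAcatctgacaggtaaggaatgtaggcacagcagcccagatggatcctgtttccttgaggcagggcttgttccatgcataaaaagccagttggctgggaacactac
SPRR3 (chr1:153001499-153001748, plus strand): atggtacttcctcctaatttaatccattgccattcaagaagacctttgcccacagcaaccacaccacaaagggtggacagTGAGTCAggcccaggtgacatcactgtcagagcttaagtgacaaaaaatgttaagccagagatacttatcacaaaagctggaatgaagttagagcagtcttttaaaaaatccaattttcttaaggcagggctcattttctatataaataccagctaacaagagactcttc

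The motif was found once before SPRR1A and SPRR3 and at 2 places before SPRR1B. It occurs in 6.6% of all 27305 promoter windows of this length and in 4.23% of those of the measured genes that could be matched (6414). Among matched genes it was found before 8 of 107 at least 2-fold lower (7.48%) and before 10 of 138 at least 2-fold higher (7.25%). The others among the 8 were S100A12, EMP1, IL1RN, SLC7A8 and SMAD1. Of the lower genes described here, SPRR2B, S100A7, S100A8, S100A9, PLAU, DUSP6 and HBEGF had no match in this window. A single window was taken per gene, and those of SPRR2B, S100A8 and PLAU lay inside the annotated span of the gene. Other starts of these genes were not searched. No window was available for PI3 and SLPI. The match is a description of the letters, and no binding was measured.

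S100 proteins, small calcium-binding proteins, were below 0 for all 13 measured members, with a median of -0.51, and 4 were at least 2-fold lower. The sign of S100A2 (-0.09), S100A4 (-0.06) and S100A10 (-0.03) depended on the scale. The median of all genes was 0.01 on the scale used and 0.11 with the values as deposited. S100A8 and S100A9, which pair to form calprotectin, read 229 against 1904 units and 88.2 against 504 units with nm23-H1 and vector. S100A7 (psoriasin) and S100A12 were at the floor with nm23-H1 and at 117 and 77.0 units with vector. The second S100A8 probe set was below the floor on both arrays. The brightest members differed far less, S100A2 by -0.09 (8087 against 8624 units), S100A10 by -0.03 (4445 against 4539.6 units) and S100A11 by -0.51, and S100A6 was at 2035 against 3497 units (-0.78).

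The SPRR genes and the S100 genes at least 2-fold lower lie close together on chromosome 1, within the region known as the epidermal differentiation complex. From CRCT1 to S100A7 there were 12 measured genes, of which 11 were below 0 and 8 at least 2-fold lower, with a median of -1.93. The exception was PGLYRP4, a peptidoglycan recognition protein, at 93.1 against 79.0 units (0.24). The 36 measured genes from VPS45 to S100A11 on one side had a median of 0.00 with 1 at least 2-fold lower (POGZ), and the 47 from S100A6 to KHDC4 on the other side had a median of 0.08 with 0 at least 2-fold lower. The S100 genes of the flanking stretches lay between -0.78 (S100A6) and -0.03 (S100A10). The limits of the 3 stretches were set after the values had been seen.

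Some secreted defence genes of mucosa were lower as well. Of 11 measured, 3 were at least 2-fold lower and 0 higher, 8 were below 0 and 3 above it (up to 0.70), and the median was -0.71. PI3, the elastase inhibitor elafin and itself an envelope component, read 104 against 1419.6 units by one probe set and 102 against 984 units by the other, the lowest difference of all measured genes (-3.77). SLPI, a related inhibitor that neighbours PI3 on chromosome 20, read 596 against 1820.3 units. CEACAM6, a cell adhesion molecule, was lower by both of its probe sets (-1.15 and, at the floor with nm23-H1, -1.03). LCN2, lipocalin 2, was just short of 2-fold at 120.3 against 235 units (-0.97), and CEACAM5 read 54.7 against 90.3 units (-0.72). AQP3, a water and glycerol channel of keratinocytes, gave -0.08 by its brightest probe set and 0.62 and 0.22 by the others.

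**Figure D2:**
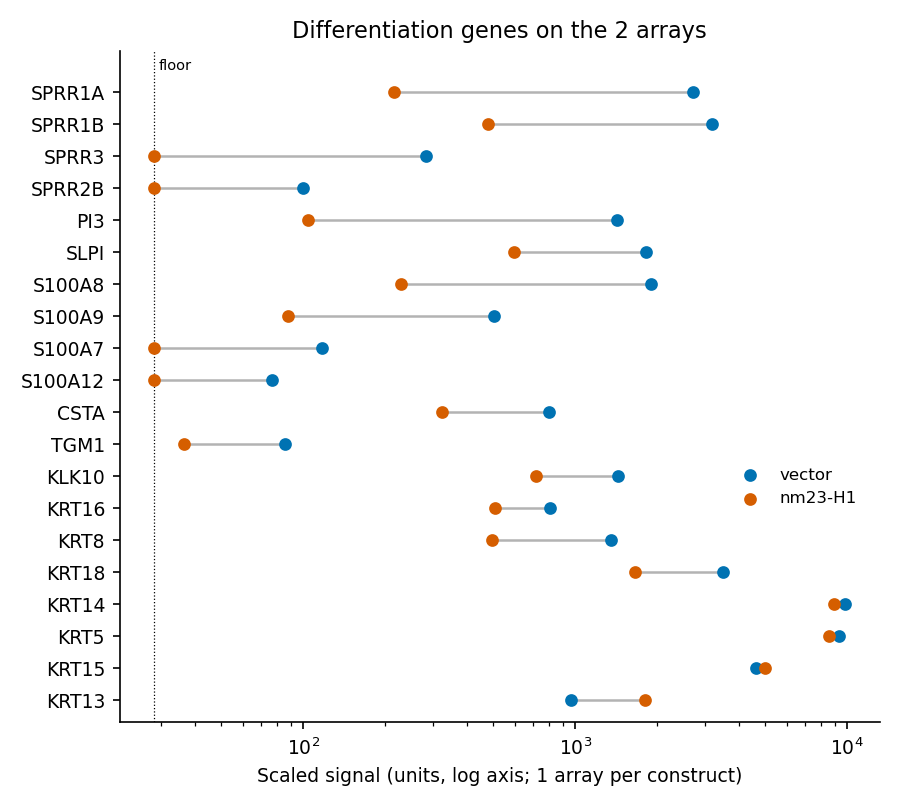
Scaled signal (x, log axis, units) of 20 genes of keratinocyte differentiation and mucosal defence on the vector array (blue) and the nm23-H1 array (orange), 1 array each, with values below 28.3 units drawn at the dotted floor. SPRR, S100 and PI3 signals are shifted to the left with nm23-H1 by the widest gaps, whereas KRT5, KRT14 and KRT15 nearly coincide and KRT13 is shifted to the right.

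Keratins, the intermediate filaments of epithelium, were lower for 13 of 16 measured, with a median of -0.51. KRT8 and KRT18, the pair of simple epithelium, were the 2 at least 2-fold lower, at 496 against 1349 units and 1656 against 3492 units, both by probe sets whose names mark possible cross-hybridisation. The basal pair was nearly level, KRT5 at 8543 against 9288.5 units (-0.12) and KRT14 at 8932 against 9823 units (-0.14). KRT15, also basal, was at 5001 against 4633 units (0.11), KRT16, a keratin of activated keratinocytes, at 506 against 809.7 units (-0.68), and KRT13, of mucosal suprabasal cells, at 1806 against 963 units (0.91).

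Identity as squamous epithelium was visible on both arrays. Of 12 markers 9 had a probe set, and all 9 were measured, with differences between -0.68 and 0.48 and 0 at least 2-fold different. Their summed signal was 30784 units with nm23-H1 and 34414 with vector. SFN, stratifin, read 6974 and 9238 units, and LY6D, a squamous surface protein, 3709 and 2663 units. Markers of other cell types were at or near the floor. Of 8 fibroblast markers 2 were measured, and COL1A1, COL3A1, DCN and LUM were below the floor on both arrays. For endothelium 1 of 6 was measured, for leukocytes 4 of 6 with PTPRC below the floor, and for melanocytes 3 of 4 with MLANA below it, with summed signals of 43.6 against 35.3, 185 against 129 and 102 against 72.1 units.

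Genes that report on ERK signalling downstream of the EGF receptor were mostly lower. Of 17 measured output and feedback genes 15 were below 0 and 3 were at least 2-fold lower, with a median of -0.46. DUSP6, the phosphatase that switches off ERK, read 32.0 against 146 units, and its other probe sets gave -0.96 and -0.65. DUSP5, a nuclear ERK phosphatase, read 79.1 against 192 units, and ETV4, an ETS factor induced by ERK, was at the floor with nm23-H1 and at 73.2 units with vector. FOSL1, an AP-1 subunit, was just short of 2-fold at 240.4 against 477 units, MYC read 197 against 289.6 units (-0.55) and IER3 780.2 against 1071 units (-0.46).

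The receptors gave no single direction. EGFR read 1149 against 1218 units by its brightest probe set (-0.08), and its 4 other probe sets gave -0.16, -0.19, 0.76 and 1.04, so that the mean over them all was 0.27. Both values above 0 came from probe sets whose names mark possible cross-hybridisation. ERBB2 read 151 against 118 units (0.36) and the adaptor SHC1 540.0 against 575 units (-0.09). Of 10 measured receptors, ligands and adaptors 1 was at least 2-fold lower, the ligand HBEGF, which was at the floor with nm23-H1 and at 113 units with vector, or at -0.84 by its dimmer probe set. TGFA, another ligand, gave -0.21 and, by a dimmer probe set at the floor with nm23-H1, -0.98. Immediate early factors were below 0 for 13 of 17 with a median of -0.34 and 0 at least 2-fold different, and the largest after FOSL1 and KLF4 (each -0.99) were IER2 at 502 against 876 units (-0.80) and JUND at 452 against 718 units (-0.67). A second, dim KLF4 probe set gave 0.09.

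Many of the higher genes were neighbours on a chromosome. Chromosome 20 held 43 of the 171 genes at least 2-fold higher, which was 18.2% of its 236 measured genes. All but 3 of the 43 started within the first 30 Mb, where 40 of 72 measured genes were at least 2-fold higher, 0 were lower, and the median was 1.06. Over the other 164 genes of the chromosome, from 30 Mb on, the median was 0.01, with 3 higher and 2 lower, and those 2 were PI3 and SLPI. The boundary at 30 Mb was set after the values had been seen.

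**Figure D3:**
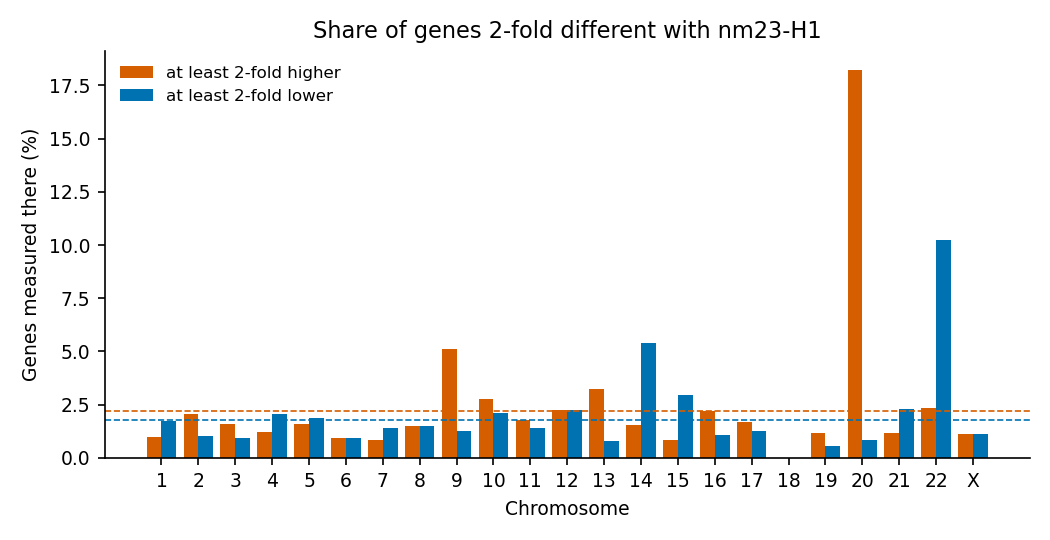
Share of the measured genes of each chromosome (%) that were at least 2-fold higher (orange bars) or lower (blue bars) with nm23-H1, with dashed lines at the shares over all genes, 2.2% and 1.78%. Chromosome 20 reached 18.2% and chromosome 9 5.13% on the higher side, and chromosomes 22 and 14 reached 10.2% and 5.38% on the lower side.

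The higher genes of the first part of chromosome 20 had varied functions and levels. SNRPB, a core protein of spliceosomal particles, read 2879 against 1077 units with nm23-H1 and vector, DSTN, the actin-severing protein destrin, 1292 against 579 units, and FKBP1A, the target of rapamycin and FK506, 1033 against 318 units. RBCK1, a subunit of the linear ubiquitin ligase, read 896 against 337 units, IDH3B, a subunit of the citric acid cycle isocitrate dehydrogenase, 867 against 277 units, and PSMF1, a proteasome inhibitor, 755 against 282 units. PCNA, the sliding clamp of DNA replication, read 606 against 202 units and its neighbour CDS2, a phospholipid synthesis enzyme, 229.7 against 73.4 units. At low level, PYGB, a glycogen phosphorylase, BMP2, a bone morphogenetic protein, and SNX5, a sorting nexin, were at the floor with vector and at 159, 125 and 90.1 units with nm23-H1.

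Further probe sets of these genes mostly went the same way, with sizes that agreed in some and not in others. Of 19 genes of the stretch with 2 probe sets exceeding the floor with both constructs, the second was above 0 in 18, and both were at least 2-fold higher in 10, with medians of 1.26 for the first and 1.18 for the second. CDS2 gave 1.65 and 1.97, SNRPB 1.42 and 1.28, and FERMT1, the integrin activator kindlin-1, 1.14 and 1.18. IDH3B, by contrast, gave 1.64 by the probe set used and 0.85 and 0.73 by the others, SEC23B, a COPII coat protein, 1.78, 1.98 and 0.70, and ADISSP 1.63 and 0.80. THBD, thrombomodulin, read 217 against 61.4 units, and its second probe set 82.0 units with nm23-H1 and under the floor with vector. Over all 1758 such genes the 2 probe sets went the same way in 1070.

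Agreement of every probe set gave a short list. Among 2160 genes with 2 or more measured probe sets, all of them were at least 2-fold higher in 15 genes (0.694%) and at least 2-fold lower in 4 (0.185%). Of the 15, 11 lay on chromosome 20 and 2 on chromosome 9, and the other 2 were PLPP1 and TXNIP. TXNIP, the thioredoxin-interacting protein that responds to glucose, read 692, 341 and 621 units with nm23-H1 and 317, 124 and 263 units with vector. PLPP1, a lipid phosphatase, read 166 and 95.7 against 54.0 and 44.1 units. The 4 lower genes were PI3, SPRR1A, CEACAM6 and PLAU. Among the higher genes, both probe sets of BMP2 and of ATRN were at the floor with vector. The dimmer CEACAM6 probe set was at the floor with nm23-H1. For SPRR1A the second probe set may cross-hybridise, so its agreement is not a separate measurement of that gene alone. PLAU, urokinase, read 177 and 93.7 against 406 and 242 units.

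**Figure D4:**
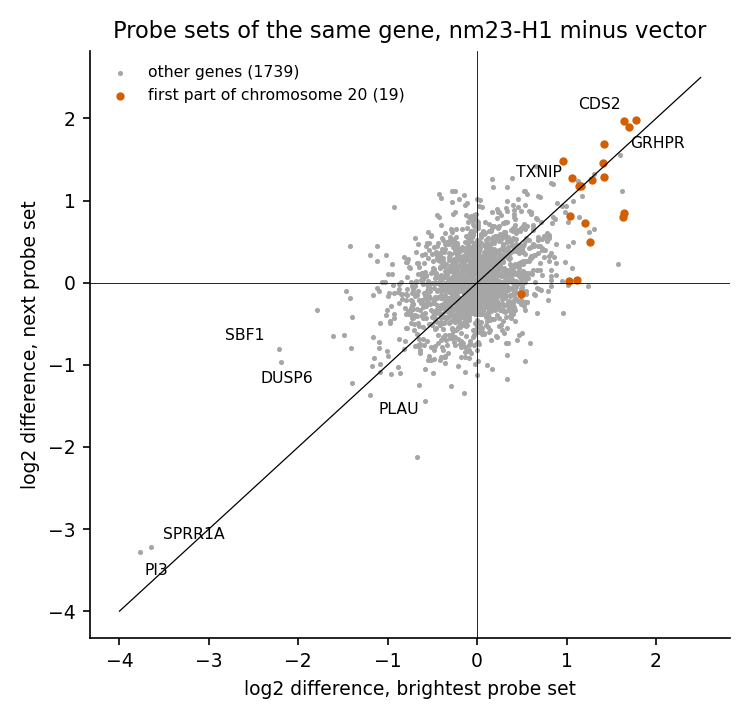
The log2 difference (nm23-H1 minus vector) by the brightest probe set of a gene (x) and by its next probe set (y), for 1758 genes with both above the floor on both arrays; the diagonal marks equal differences. Genes of the first part of chromosome 20 (orange, 19) gather at the upper right, PI3 and SPRR1A stand alone at the lower left, and SBF1 and DUSP6 lie well above the diagonal because their next probe set differed less.

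Chromosome 9 had a smaller stretch of the same kind. Of 76 measured genes in its first 40 Mb, 63 were above 0 and 12 at least 2-fold higher, with a median of 0.60, and the 236 genes from 60 Mb on had a median of 0.01. These boundaries too were set after the values had been seen. GRHPR, glyoxylate reductase, read 468, 525 and 456 units by its 3 probe sets with nm23-H1 and 155, 178 and 161 units with vector, UBAP1, a subunit of the ESCRT-I sorting complex, gave 1.18 and 1.06 by its probe sets, and ERMP1, an endoplasmic reticulum peptidase, read 154 against 46.5 units. NDUFB6, a subunit of respiratory complex I, was at 409 against 246 units (0.74), and RPS6, a ribosomal protein, at 6256 against 5081 units (0.30).

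Chromosomes 14 and 22 were shifted the other way. Chromosome 14 had 260 measured genes, of which 194 were below 0 and 14 at least 2-fold lower, with a median of -0.31. On chromosome 22, the 144 genes from 30 Mb on had a median of -0.34 with 21 at least 2-fold lower, and the 70 before it a median of -0.01 with 1 lower. Within the 144, the 15 genes from 50 Mb on had a median of 0.01, with 4 at least 2-fold lower and 1 higher. The boundary at 30 Mb was again set after the values had been seen. Chromosome 22 genes among the lower ones included ADSL, an enzyme of purine synthesis (311 against 949.5 units, or -0.65 by the other probe set), MYH9, a non-muscle myosin (186 against 459 units), MCM5, a subunit of the replicative helicase (422 against 849 units), BIK, a pro-apoptotic BCL2 relative (71.5 against 203 units), and CBX6, a Polycomb protein (101 against 269 units). On chromosome 14 they included EIF2S1, a subunit of the translation initiation factor eIF2 (414 against 883 units, with -0.73 and -0.71 by its other probe sets), HSPA2, a 70-kilodalton heat shock relative (298 against 679 units), and BDKRB2, a bradykinin receptor (40.9 against 124 units). LTBP2, a latent TGF-beta binding protein on chromosome 14, went against its neighbours at 181 against 59.9 units.

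On all other chromosomes together, 103 genes passed 2-fold upward and 96 downward. Chromosomes 9 and 20 held 34.5% of the higher genes against 7.05% of those measured, and chromosomes 14 and 22 held 26.1% of the lower genes against 6.11%. Whether the copy number of these stretches differed between the clones was not tested.

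Of the 25 largest higher genes, 11 lay outside these 4 chromosomes. ALPP, placental alkaline phosphatase, read 188 against 35.8 units and has near-identical paralogues whose RNA its probes may share. HCLS1, an actin-binding adaptor best known from blood cells, read 196 against 37.9 units, CALB1, the calcium buffer calbindin, 206 against 59.3 units (0.93 by its dimmer probe set), and PRAF2, a membrane trafficking protein, 196 against 63.3 units. TUBA1A, an alpha-tubulin, was higher at 89.3 against 28.7 units. At the floor with vector were MMP13, a collagenase (111 units with nm23-H1), HSPB8, a small heat shock protein (105 units), ZXDC (99.4 units), SNCG, gamma-synuclein (86.1 units) and AFF1 (88.0 units), and the other AFF1 probe sets gave 0.08 and 0.27.

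Of the 25 largest lower genes, 18 lay outside them, 8 of these on chromosome 1. SPARC, a matrix glycoprotein, read 53.2 against 174 units, PLAC8, a small cysteine-rich protein, 81.2 against 351.01 units, and GSTM3, a glutathione transferase, 263 against 839 units. CHAC1, an enzyme that breaks down glutathione and a target of ATF4, was at the floor with nm23-H1 and at 113 units with vector. TSFM, a mitochondrial translation factor, TTC1, AATK and ASB13 were likewise at the floor with nm23-H1, from 113, 106, 98.1 and 89.9 units with vector. VEGFA, an angiogenic growth factor, was at least 6.41-fold lower by the brightest probe set (25.1 against 182 units), whereas the others read 84.0 against 108, 10.9 against 38.7 and 80.7 against 150 units, which is -0.36, -0.45 and -0.89 after the floor. SBF1 on chromosome 22 showed the same split, with -2.21, -0.80 and -0.17. The size of the difference for both genes therefore rests on the probe set.

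**Figure D5:**
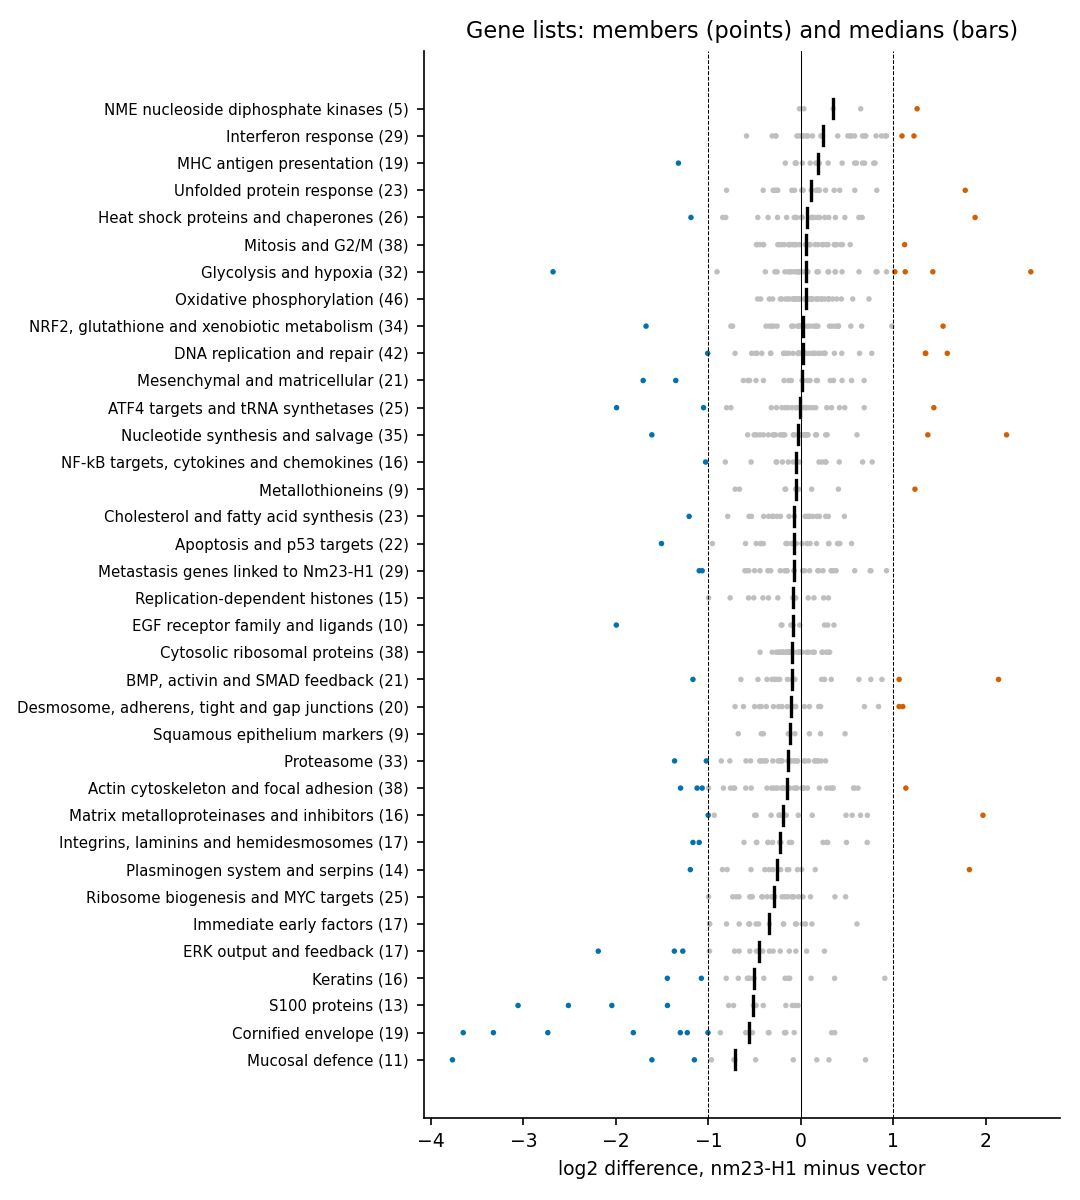
The log2 difference (nm23-H1 minus vector, x) of each measured member (points) of the 36 gene lists with at least 5 measured genes, ordered by their medians (black bars), with the number measured in brackets; members at least 2-fold higher are orange and those at least 2-fold lower blue. Mucosal defence, cornified envelope, S100 and keratin genes have the lowest medians (-0.71 to -0.51), and the highest median is that of the NME genes (0.35). That list has 5 measured genes, the transfected NME1 among them, and its median is the value of NME6.

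Matrix proteases and adhesion genes differed one by one. Of 16 measured metalloproteinases and inhibitors, TIMP1 was 2.00-fold lower (228 against 457 units) and MMP13 higher, and MMP1, the interstitial collagenase, was at 731 against 521 units (0.49). Of 14 genes of the plasminogen system and serpins 11 were below 0 with a median of -0.26, PLAU the only one at least 2-fold lower and THBD the only one higher, and F3, tissue factor, read 117 against 203 units (-0.80). Among 17 integrins, laminins and hemidesmosome genes 2 were at least 2-fold lower and 0 higher, with a median of -0.23. They were ITGA5, the fibronectin receptor chain (47.6 against 102 units), and DST, whose other measured probe sets gave -0.15 and 0.11. ITGB4, the hemidesmosome integrin, read 728 against 1115 units (-0.62, with -0.40 and -0.14 by other probe sets), and LAMB3, a laminin-332 chain, 1349 against 959 units (0.49).

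Actin and junction genes gave a mixed account. Of 38 measured actin and focal adhesion genes 3 were at least 2-fold lower (MYH9, TPM1 and GSN) and 1 higher (FERMT1), with a median of -0.15. GSN, gelsolin, read 163 against 342 units, and ACTN1, an actinin on chromosome 14, was just short of 2-fold by its brightest probe set (440.04 against 879 units) and gave -0.89 and -0.95 by the others. TPM1, a tropomyosin, differed by -1.12 by the probe set used and by -0.21 and 0.26 by the others. Among 20 junction genes 2 were at least 2-fold higher, the tight junction claudins CLDN1 (185 against 86.3 units) and CLDN4 (62.9 against 30.1 units), while the desmosome plaque genes PKP1 and PKP3 were at -0.71 and -0.62 by their brightest probe sets and at -0.32 and -0.22 by the others. DSG2, a desmoglein, read 131 against 73.1 units (0.84).

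Mesenchymal and matricellular genes had a median of 0.01 over 21 measured, with 2 at least 2-fold lower. They were SPARC and VIM, vimentin, which was at the floor with nm23-H1 and at 72.4 units with vector. TGFBI, an adhesion protein induced by TGF-beta, was at 1933 against 1419.6 units (0.45) and COL4A2, a basement membrane collagen, at 147 against 219 units (-0.57). In the BMP and SMAD list BMP2 and the Notch ligand JAG1 (177 against 84.7 units), both on chromosome 20, were the 2 of 21 at least 2-fold higher, and SMAD1, a transducer of BMP signals, was the 1 lower, at the floor with nm23-H1 and at 63.6 units with vector. Of the BMP target genes, ID1 read 839.6 against 985 units (-0.23).

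Among 29 genes linked elsewhere to Nm23-H1 or metastasis 2 were at least 2-fold lower and 0 higher, with a median of -0.07. MET, the receptor of hepatocyte growth factor, read 47.4 against 102 units by the probe set used, and its 3 other probe sets gave -0.10, -0.08 and -0.32. GSN was the second. ALDOC, an aldolase, was at 127 against 66.6 units (0.93), PTGES, a prostaglandin synthase, at 332 against 198 units (0.75, or 0.31 by its other probe set), and CD44, an adhesion receptor, at 1228 against 1387 units (-0.18).

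Metabolic lists had medians close to 0, with a few members at least 2-fold different. Of 35 genes of nucleotide synthesis and salvage, 2 were at least 2-fold higher, ENTPD6, a nucleoside diphosphatase on chromosome 20 (175 against 37.4 units), and DTYMK, thymidylate kinase (187 against 72.1 units), and ADSL was the 1 lower. RRM2 and IMPDH2, rate-setting enzymes of deoxynucleotide and guanine nucleotide synthesis, differed by 0.04 and -0.01. Of 32 glycolysis and hypoxia genes 4 were at least 2-fold higher, PYGB, ENO2, TXNIP and BNIP3, which is 12.5% of the list, and VEGFA was lower, with a median of 0.06. ENO2, the neuronal enolase, was at least 2.69-fold higher, while ENO1, the main enolase, was at 6273 against 5952 units (0.08) and GAPDH at 7914 against 8461 units (-0.10). Of 23 cholesterol and fatty acid genes 1 was at least 2-fold lower, the sterol desaturase SC5D (41.5 against 96.0 units), and 46 genes of oxidative phosphorylation had a median of 0.06 with 0 at least 2-fold different. GCLM, a subunit of the glutathione-synthesising ligase, was the 1 of 34 antioxidant and xenobiotic genes at least 2-fold higher, at 151 against 52.1 units, and GSTM3 the 1 lower.

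Of 33 measured proteasome genes 2 were at least 2-fold lower and the median was -0.14. The 5 on chromosome 14, PSMA3, PSMB5, PSMC1, PSMC6 and PSME1, had a median of -0.77 with 4 below 0, and the 28 elsewhere a median of -0.12. PSMC6, an ATPase of the base, read 79.1 against 204 units, PSMC1 469 against 851 units and PSMA3 346 against 589 units. The other lower one, PSME4, gave 0.34 and 0.15 by its other probe sets. HSP90AA1, the inducible HSP90 on chromosome 14, was at 972 against 1707 units (-0.81), while its paralogue HSP90AB1 on another chromosome was at 1932 against 1916 units (0.01).

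In all, the lists held 805 measured genes, of which 99 lay on chromosomes 9, 14, 20 and 22. At least 2-fold higher were 25 of the 805, with 11 on chromosome 20. At least 2-fold lower were 44, with 3 on chromosome 14, 4 on chromosome 22 and 9 on chromosome 1. Over all measured genes the shares were 2.2% higher and 1.78% lower, and the lists were chosen with earlier results known. The chromosome 20 genes included all those higher in the lists of mitosis (CDC25B, a phosphatase that activates CDK1, 844 against 388 units), of ATF4 targets (TRIB3, 724 against 267 units) and of the unfolded protein response (SEC23B, 265 against 77.3 units). Of 42 replication and repair genes, PCNA and GINS1 (224 against 88.2 units) on chromosome 20 and CDC45 on chromosome 22 (117 against 45.9 units) were higher and MCM5 lower, and the median was 0.02. Outside chromosomes 9, 14, 20 and 22, 0 genes of the replication list were at least 2-fold different.

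Growth-related lists were slightly lower or level. Of 25 genes of ribosome biogenesis and MYC targets 21 were below 0, with a median of -0.29 and 0 at least 2-fold different. NPM1, nucleophosmin, gave -0.74, -0.34 and -0.25 by its 3 probe sets, and NOLC1 gave -0.70, -0.40 and 0.04. PES1, a ribosome assembly factor on chromosome 22, read 125 against 249.8 units. The 38 cytosolic ribosomal protein genes lay between -0.44 and 0.31 with a median of -0.10, and that median was 0.05 with the hybridisation controls as the scale. The 38 mitosis genes had a median of 0.06, with CCNB1, cyclin B1, at 1275 against 1222 units (0.06). The median of 15 histone genes was -0.09, and H2BC12 was just short of 2-fold (747 against 1492 units).

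Interferon response genes were more often above 0 than below. Of 29 measured interferon response genes 23 were above 0, against 51.0% of all genes, with a median of 0.24 and 2 at least 2-fold higher. IRF7, a factor that amplifies interferon production, read 92.5 against 39.6 units and USP18, which removes ISG15 from proteins and lies on chromosome 22, 81.0 against 38.0 units. With the floor at 66.2 units they differed by 0.48 and 0.29, and 0 genes of the list were at least 2-fold higher. IFI35 read 179.8 against 95.5 units (0.91), PSMB9, an immunoproteasome subunit, 551 against 342 units (0.69) and TAP1, the peptide transporter, 168 against 106 units (0.67), while ISG15 and IFITM3, the brightest, differed by 0.12 and 0.02. Antigen presentation genes had a median of 0.19 over 19, with 14 above 0. HLA-C gave 0.30, 0.03, -0.17 and -0.35 by its 4 probe sets, a mean of -0.05, and B2M gave -0.06 and 0.11. HLA-E was called lower by a dim probe set, and its brighter ones read 452 against 503 and 165 against 168 units. NF-kB targets and cytokines were at a median of -0.05 over 16, and the 1 gene lower, IL1RN, an inhibitor of interleukin 1, gave -1.03, -1.02 and 0.01 by its 3 measured probe sets.

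Stress and survival genes differed one by one. ATF4, on chromosome 22, read 528 against 921 units (-0.80), and its targets CHAC1 and STC2 (48.4 against 100.4 units) were lower while TRIB3 was higher, with a median of -0.01 over 25 ATF4 targets and tRNA synthetases. HSPA5, the chaperone BiP, was at 818 against 757 units (0.11) and CRELD2, a folding factor, at 668 against 378 units (0.82), in an unfolded protein response list with a median of 0.11 over 23. Of 26 heat shock and chaperone genes HSPB8 was the 1 at least 2-fold higher and HSPA2 the 1 lower, with a median of 0.06. BIK was the 1 of 22 apoptosis and p53 genes at least 2-fold different, and CDKN1A, the cell cycle inhibitor p21, read 75.1 against 114 units (-0.60). Among 9 metallothionein genes and their regulators, MT1M was at 87.5 against 37.2 units (1.23), MT2A at 8911 against 8217 units (0.12) and MT1H at 3244 against 5140.5 units (-0.66).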

How the data were processed

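Total RNA of each transfectant was hybridised to 1 Affymetrix array of 22283 probe sets. The authors deposited linear intensity signals made with MAS5, per the submitters' processing notes; version, scaling target and detection calls are not given in the sources used here. Each array was multiplied so that its mean between the 2nd and 98th percentiles equalled the geometric mean over the 3 arrays of the series; values under the pooled median of 28.3 were set to it, and log2 was taken. Of 19071 probe sets with a single symbol (GEO's platform annotation), 19059 were given their current RefSeq symbol through the gene ID. Those with several symbols (1043, except the one of NME2 and its read-through), with none (2169) and 6 control probe sets were left out. For each gene, probe sets not ending in _x_at came first, then the brightest on average.

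Genes were counted at a log2 difference of 1 or more. With 1 array per group no test was possible. The nm23-H2 array served for scale, floor and choice of probe set only. Members and the 40 gene lists were chosen with earlier results of these data known, so they are descriptions. Named were the NME genes; the 25 largest each way among genes reaching the 70th percentile (66.2 units) with no other measured probe set opposite by 0.5 or more; the 20 each way with the largest smallest difference over 2 or more probe sets; and, per list, members at least 2-fold different or else the 5 largest, and the 3 brightest. Outside the rule, and named after their values were seen, were IVL, PGLYRP4, POGZ, PSME1, the genes that bound the chromosome 1 stretches and the genes with a promoter match (EMP1, SLC7A8). Positions came from GRCh38.p14. The steps were tested on simulated data. Python 3.11.15, numpy 2.4.6, pandas 2.3.3 and matplotlib 3.10.9 were used. Alternatives are given in the closing section.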

Additional observations from a re-analysis of the deposited data

How the results depend on the processing

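The counts of 171 higher and 138 lower genes stayed within 1.5 times under a common median (181 and 134), quantile normalization (169 and 154), the values as deposited (209 and 93), 16 added in place of a floor (185 and 156), the mean of the probe sets (158 and 118) and the nm23-H2 array left out (165 and 136). They moved to 659 and 556 with the 25th percentile as floor, 72 and 60 with the 70th, 106 and 76 with probe sets ending in plain _at and 689 and 602 at 1.5-fold. Added after seeing the data, the hybridisation controls as the scale gave 301 higher and 106 lower, and leaving out chromosomes 9, 14, 20 and 22 gave 103 and 96. Adding 16 instead of flooring, 107 of the 171 higher and 83 of the 138 lower genes were still called. Of 109 named genes at least 2-fold different, 42 dropped under 2-fold with the higher floor and 27 when 16 was added. IL1RN reversed to 0.0119 with the nm23-H2 array left out, since another probe set was then the brightest. List medians of the cornified envelope (-0.87 to -0.42), S100 (-0.68 to -0.40), mucosal defence (-0.85 to -0.34), keratin (-0.54 to -0.37) and ERK output (-0.46 to -0.29) genes were below 0 in all 11 alternatives, and interferon genes (0.23 to 0.49) above 0. Of the 36 list medians, 15 turned sign in at least 1 alternative, with medians here between -0.19 and 0.01. Dim genes limit the comparison: between 28.3 and 66.2 units 0.652% were at least 2-fold higher and 0.583% lower. No paired analysis was possible because each group had 1 array.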

Other observations

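A few other stretches of 10 Mb stood away from 0, among 239 with at least 10 measured genes whose medians mostly lay between -0.16 and 0.13 (10th and 90th percentiles). The 12 genes of the end of chromosome 2, from GPC1 to DTYMK, had a median of 0.46 with 2 at least 2-fold higher, and the 19 of the start of chromosome 5, from SDHA on, a median of 0.36 with 0. Near the start of chromosome 22, from IL17RA to ARVCF, the median of 20 genes was 0.24, against -0.34 over the genes from 30 Mb on. On the lower side, the first 10 Mb of the X chromosome had a median of -0.32 over 13 genes, from PLCXD1 to SHROOM2, and the 14 genes of chromosome 1 from QSOX1 to ODR4 a median of -0.29. These stretches were picked after their values were seen, and no test was made.

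Calls differed with brightness. Among the 381 genes above 1000 units on the brighter array, 13 were at least 2-fold lower and 3 higher (3.41% and 0.787%), whereas between 66.2 and 200 units 109 of 2839 were higher and 76 lower.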
